A study of Mus musculus with 3 samples.

Results

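Interferon-stimulated genes and genes of antigen processing were followed across 3 fibroblast cultures from mouse forestomach, each measured on 1 array. The list held 46 genes, given by symbol and covering antiviral effectors, RNA sensors, transcription factors, GTPases and the machinery that loads peptides onto MHC class I. A value of their own was available for 41 of them, among 19938 genes with a value in all. Ifi204, Isg15, Gbp2 and Igtp were read only by probe sets annotated to more than 1 gene, so they are described apart, and Ifi44 was not analysed here.

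The cells are labelled as FSP1-positive (S100a4 encodes FSP1, which marks fibroblasts) and were grown in medium with 10% serum and taken at passages 4 to 6. The first line was wild type, from normal forestomach. In the second, Tgfbr2, the gene for the ligand-binding TGF-beta receptor, was conditionally knocked out (Tgfbr2 cKO), and the line was taken from a forestomach squamous cell carcinoma. The third was a cKO of both Tgfbr2 and Smad4, whose product is the common mediator of BMP and TGF-beta signals, and came from normal forestomach. All lines are described as coming from C57BL6 and BALBc mice, mixed and of either sex. Strain and sex are not assigned to a line, and the Cre driver and the animals' age are not stated in the labels. No interferon or other stimulus is named for any line. Each genotype is thus represented by 1 culture, and genotype, line and, for the Tgfbr2 cKO, tissue of origin cannot be told apart.

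Interferons are secreted cytokines that bind cell surface receptors and act through the JAK kinases and the STAT transcription factors. Type I interferon activates a complex that contains STAT2 and IRF9 and binds an interferon-stimulated response element (ISRE), whereas interferon-gamma acts through a gamma-activated site (GAS). Their target genes block viral entry, translation and replication, sense foreign nucleic acid and raise the display of peptides on MHC class I. Fibroblasts make type I interferon and respond to it, and keep a low tonic expression of many of these genes without infection.

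The start regions of the genes that the differences turn on are shown first, beside those of Ifit1 and Rsad2, which are textbook ISRE genes and were nearly flat here. The sequences are from RefSeq on GRCm38.p6, 5′ to 3′ along the gene, and stop at or before the first transcribed base. Capitals mark the letters GAAANNGAAA, the core repeat of an ISRE, on either strand, or TTCNNNGAA, the core of a GAS, which reads the same on both strands. The stretch for Stat2 is chr10:128270248-128270397 on the plus strand, for Irgm1 chr11:48871421-48871570 on the minus strand, for Ifi202b chr1:173982895-173983044 on the minus strand and for Oas1a chr5:120907526-120907675 on the minus strand. That for Tap1 is chr17:34187331-34187555 on the plus strand, and it spans the whole 225 bases between the start of Tap1 and the start of Psmb9, which is transcribed the other way. Those for Ifit1 and Rsad2 are chr19:34640739-34640838 on the plus strand and chr12:26456503-26456602 on the minus strand.
Stat2: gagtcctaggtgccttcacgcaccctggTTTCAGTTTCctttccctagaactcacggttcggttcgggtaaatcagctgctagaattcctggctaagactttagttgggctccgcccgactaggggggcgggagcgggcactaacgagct
Irgm1: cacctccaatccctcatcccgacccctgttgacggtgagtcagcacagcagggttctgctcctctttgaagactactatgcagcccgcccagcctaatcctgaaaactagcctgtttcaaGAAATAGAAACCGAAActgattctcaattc
Ifi202b: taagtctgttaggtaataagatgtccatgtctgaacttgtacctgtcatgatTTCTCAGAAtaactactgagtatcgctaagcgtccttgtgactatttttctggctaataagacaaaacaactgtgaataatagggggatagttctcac
Oas1a: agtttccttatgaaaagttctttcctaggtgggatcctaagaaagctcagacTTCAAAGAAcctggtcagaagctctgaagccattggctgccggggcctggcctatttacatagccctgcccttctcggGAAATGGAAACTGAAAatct
Tap1 to Psmb9: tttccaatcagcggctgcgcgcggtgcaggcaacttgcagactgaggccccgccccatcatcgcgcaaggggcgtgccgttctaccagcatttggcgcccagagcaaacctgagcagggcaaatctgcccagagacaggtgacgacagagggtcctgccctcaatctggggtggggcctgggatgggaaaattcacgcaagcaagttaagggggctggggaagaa
Ifit1: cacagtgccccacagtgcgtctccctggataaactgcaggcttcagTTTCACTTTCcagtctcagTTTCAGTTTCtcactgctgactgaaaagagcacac
Rsad2: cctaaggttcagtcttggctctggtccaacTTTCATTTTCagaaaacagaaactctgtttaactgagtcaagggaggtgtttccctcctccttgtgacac
In the stretches shown, Stat2 held 1 match to the ISRE core, Irgm1 held 2 that overlap in their letters, and Oas1a held 2 overlapping ISRE matches and 1 GAS match. Ifi202b held a GAS match and no ISRE match, and the stretch between Tap1 and Psmb9 held neither. Windows of 300 bases, from 250 before the start to 50 after, were at hand for 35 of the 46 genes. Of these, 20 held GAAANNGAAA (57.1%), against 3.99% of the 27025 genes with a window, and 10 held TTCNNNGAA (28.6%), against 9.55%. A match is a run of letters and not a measured binding site.

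The signals are log2 values, so a difference of 1 is 2-fold, and a signal depends on its probes, so levels are compared between arrays and not between genes. Each line has 1 array, so differences are described without a p-value or a check against replicates, and precision is limited by the number of arrays. The 3 arrays had a median signal of 6.63, and 27 of the 41 genes had a mean signal at or above it. Values were coarse. Between 39.9% and 45.1% of probe sets in an array shared their exact value with another probe set, 47.9% of all genes had the same value in all 3 arrays, and so did 16 of the 41, or 39.0%. An equal value therefore says that no difference was resolved, not that there was none.

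Tgfbr2 had signals of 10.25, 10.25 and 10.29 and Smad4 of 11.06, 11.06 and 11.04, in the order wild type, Tgfbr2 cKO, Tgfbr2/Smad4 cKO, which is kept throughout. Each value covers probes along the whole transcript, so it does not test the deletion. S100a4 was at 13.18, 13.16 and 12.71, and 12 of 12 fibroblast markers had a mean signal at or above the median. In the Tgfbr2/Smad4 cKO, 9 of these 12 were above wild type, up to 1.40 for Pdgfra, and 3 below, S100a4, Postn at -0.72 and Thy1 at -2.36. The Tgfbr2/Smad4 cKO array also differed in sex-linked genes, with Xist at 5.33, 5.35 and 9.44 and Eif2s3y at 10.12, 10.00 and 5.01. It was lower than wild type in 17 of 17 proliferation genes, whose summed linear signal was 16028, 14227 and 6386 in the same order. Of 6 mesothelial markers, 5 were below wild type in each knockout, with summed linear signals of 1903, 1195 and 788, and Upk1b at 9.70, 8.87 and 6.21. Of 10 epithelial markers, 3 were below wild type in the Tgfbr2/Smad4 cKO and 7 equal. In the Tgfbr2 cKO, 1 of them, Krt19, was above, 4 below and 5 equal. Their summed signals were 1156, 1260 and 754, with Krt19 at 8.82, 9.25 and 6.93. The part of sex, proliferation and these cell types in the differences below was not tested.

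**Figure D1:**
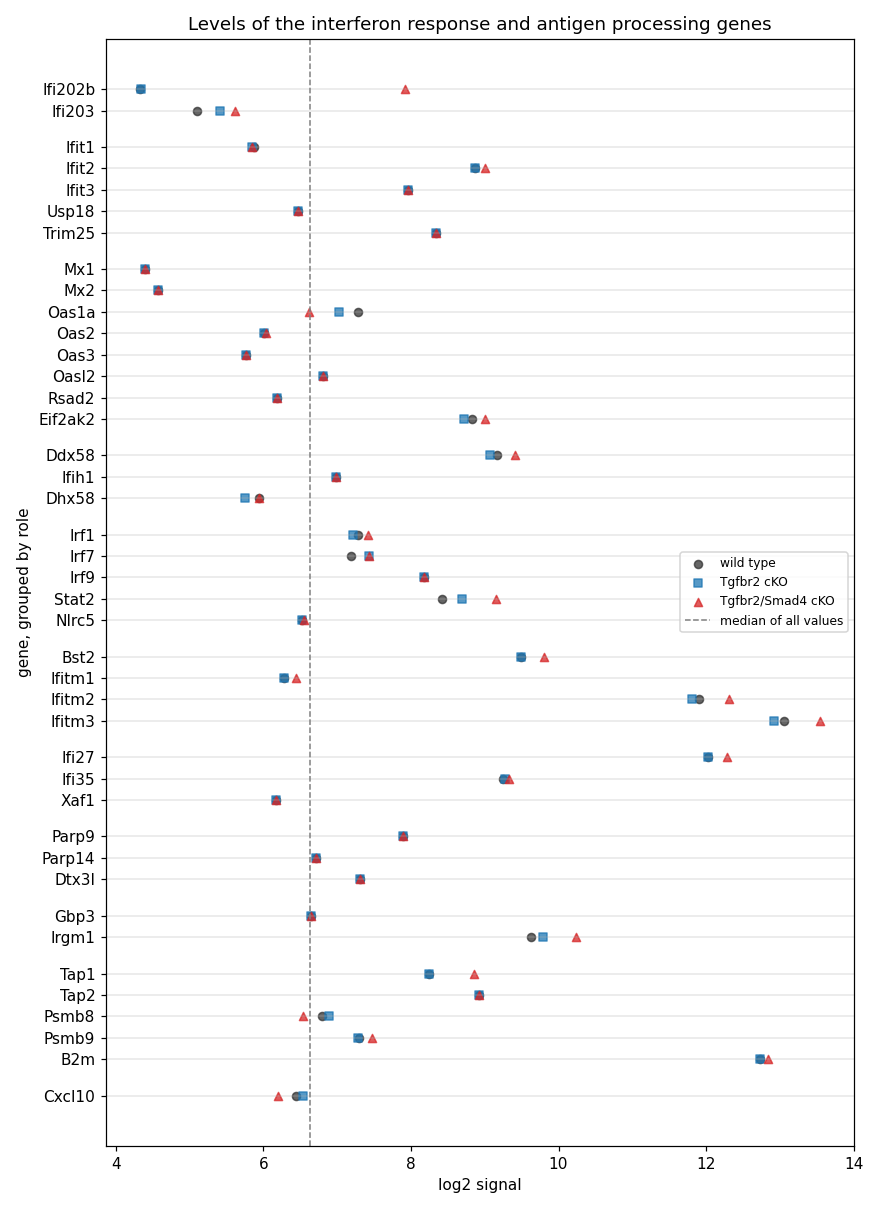
Signal (log2, horizontal axis) of each of the 41 genes with a value, grouped by role, in the wild-type (circle), Tgfbr2 cKO (square) and Tgfbr2/Smad4 cKO (triangle) arrays, 1 array each. The dashed line is the median of all values, 6.63. Most symbols of a gene lie on each other, Ifi202b stands apart at 7.93 in the Tgfbr2/Smad4 cKO array, and Stat2, Irgm1, Tap1, Ifitm2 and Ifitm3 have their triangle to the right.

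The Tgfbr2/Smad4 cKO line, set beside wild type, showed Ifi202b much higher and Stat2, Tap1 and Irgm1 higher by between 1.52-fold and 1.66-fold, while Oas1a was 1.58-fold lower. Only Ifi202b and Stat2 stayed past 1.5-fold with 32 added to each linear signal, where Tap1 was at 0.56, Irgm1 at 0.58 and Oas1a at -0.53. With the offset, 2 of 41 were higher, against 1.73% of all genes, and 0 lower, against 2.59%. Ifi202b was the 1 gene of 41 at least 2-fold higher, a share of 2.44%, where 0.722% of all genes were. None was 2-fold lower, where 1.3% of all genes were. At 1.5-fold, 4 of 41 were higher, or 9.76%, against 2.08% of all genes, and 1 of 41 was lower, or 2.44%, against 3.12%. In all, 20 of the 41 were above wild type, 4 below and 17 equal, a median of 0. Over all genes 24.8% were above, 22.8% below and 52.3% equal, also with a median of 0.

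Bright and dim genes differ in how often they pass a fold, so the counts were also taken over genes with a mean signal at or above the median, which leaves 27 of the 41 and removes Ifi202b. None of the 27 was 2-fold higher or lower, where 1.13% and 2.14% of such genes were. At 1.5-fold, Stat2, Tap1 and Irgm1 made 3 of 27 higher, or 11.1%, against 3.21%, and Oas1a made 1 of 27 lower, or 3.70%, against 4.98%. With the offset of 32 these counts were 1 of 27 higher (Stat2), against 2.8%, and 0 of 27 lower, against 4.26%.

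**Figure D2:**
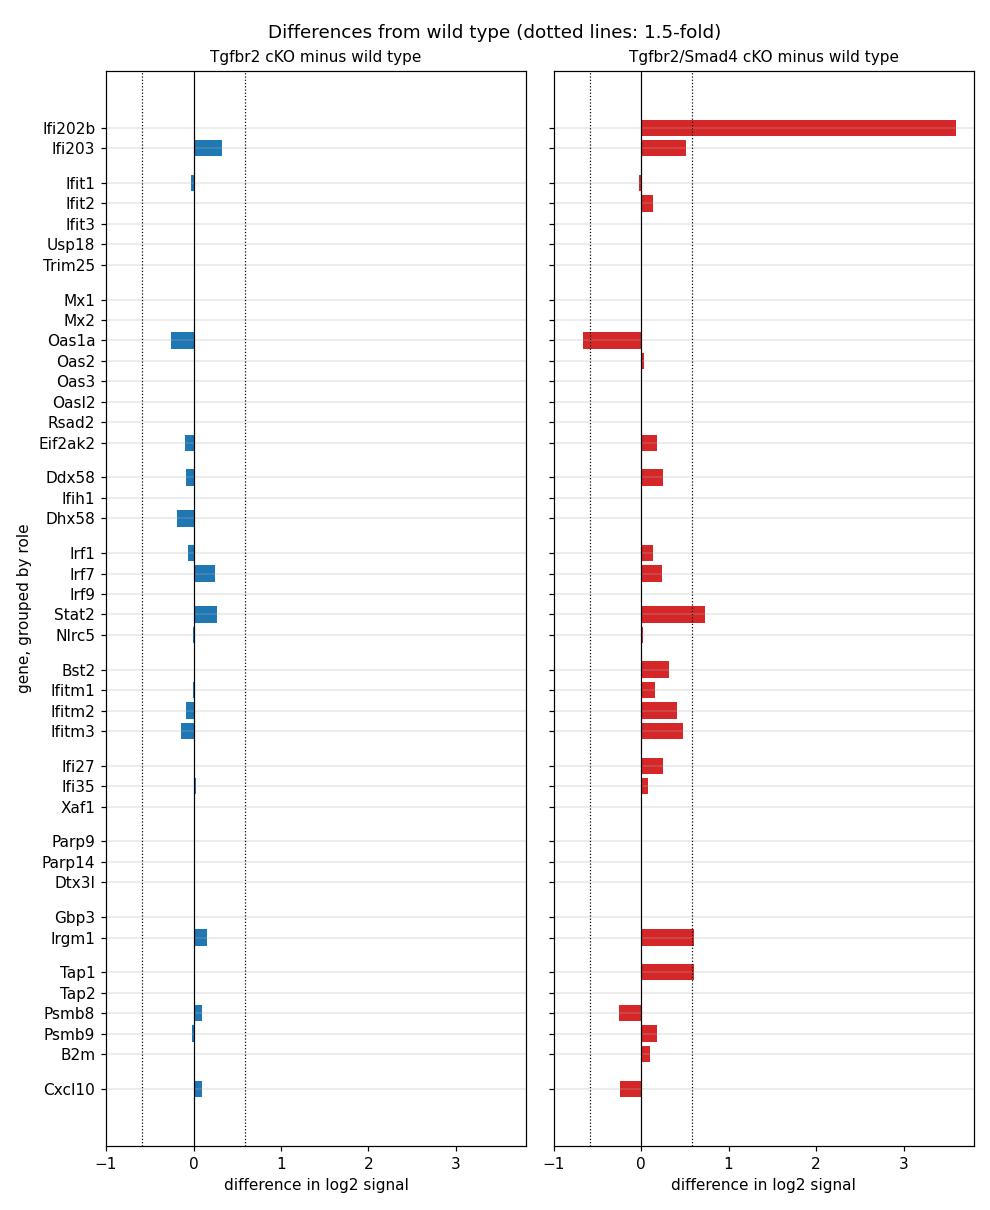
Difference in log2 signal from the wild-type array for each of the 41 genes, grouped by role, in the Tgfbr2 cKO array (left) and the Tgfbr2/Smad4 cKO array (right), 1 array each. Dotted lines mark 1.5-fold in each direction. No bar on the left reaches them, and on the right Ifi202b, Stat2, Irgm1 and Tap1 pass the upper line and Oas1a the lower.

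The p200 family encodes nuclear and cytosolic proteins with HIN domains, several of which bind DNA, and its genes lie side by side. Ifi202b had signals of 4.33 in wild type, 4.35 in the Tgfbr2 cKO and 7.93 in the Tgfbr2/Smad4 cKO. Only the last array was above the median signal, and its difference from wild type was 3.60, or 12.1-fold. Of all genes, 0.0201% lay at least as far up. Because 2 of the 3 signals were low, the size depends on the scale, and with 32 added to each linear signal the difference was 2.40. Its neighbour Ifi203 had signals of 5.09, 5.42 and 5.61, all under the median, so that Ifi203 was higher by 0.32 in the Tgfbr2 cKO and by 0.52 in the Tgfbr2/Smad4 cKO. Ifi204, read together with Ifi211, was at 8.72 in every array. Ifi205, the neighbour of Ifi202b on its other side, was at 5.74, 5.74 and 5.96. Mouse strains are known to differ in Ifi202b expression, and since strain is not assigned to a line, its part cannot be told apart from that of genotype. The same limit holds for every other gene here, those of the MHC region included. Genes of this family are close in sequence, so a probe may read more than 1 of them.

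Among the transcription factors, Stat2, which acts in the type I response, had signals of 8.43, 8.70 and 9.16. It was the gene of this role with the largest difference, 0.73 above wild type in the Tgfbr2/Smad4 cKO and 0.27 in the Tgfbr2 cKO. Only 1.34% of all genes lay as far up in the first of these. Irf9, the DNA-binding partner of STAT2, was at 8.17 in every array. Irf7, which amplifies type I interferon production, was at 7.19 in wild type and 7.43 in both knockouts. Irf1, an early target of interferon-gamma signalling, had signals of 7.28, 7.21 and 7.42, but its probe sets were uneven, with differences of 0.02 and 0.25 in the Tgfbr2/Smad4 cKO. Nlrc5, the transactivator of MHC class I genes, was read by 19 probe sets, of which 15 were equal in wild type and the Tgfbr2/Smad4 cKO and 4 were higher in the latter, by at most 0.12.

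Genes often read as the signature of a type I response were nearly flat. The IFIT proteins bind viral RNA and block its translation, and Ifit1 had signals of 5.88, 5.85 and 5.85, Ifit2 was at 8.87 in wild type and the Tgfbr2 cKO and 0.14 higher in the Tgfbr2/Smad4 cKO, and Ifit3 was at 7.96 in every array. ISG15 is a ubiquitin-like modifier, and its gene, read together with Gm9706, was at 6.34 in every array. Usp18, which removes ISG15 from proteins and damps the receptor, was equal in all 3 at 6.48, and Trim25, a ubiquitin ligase that activates RIG-I, at 8.34. Mx1 and Mx2, dynamin-like GTPases that block viral replication, were equal at 4.40 and 4.57, and Rsad2, the radical SAM enzyme viperin, at 6.18. All of these except Ifit2, Ifit3 and Trim25 were under the median signal, where small differences are least resolved.

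The OAS enzymes make 2′-5′ oligoadenylate, which activates RNase L. Oas1a had signals of 7.28, 7.02 and 6.62, and was lowest in the Tgfbr2/Smad4 cKO, at -0.66 from wild type and -0.26 in the Tgfbr2 cKO. A second probe set, annotated to Oas1a and Oas1g together, was at 5.30 in every array, and averaging both gave -0.33. Oas2 was at 6.01, 6.01 and 6.04, Oas3 at 5.76 and Oasl2 at 6.80 in every array, so no difference of that size was measured for the other OAS genes on the list, and those of Oas2 and Oas3 were read under the median signal. Eif2ak2, which encodes the kinase PKR that stops translation on double-stranded RNA, had signals of 8.82, 8.73 and 9.01.

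The RIG-I-like receptors sense viral RNA in the cytosol. Ddx58, which encodes RIG-I, had signals of 9.16, 9.07 and 9.41, with the Tgfbr2/Smad4 cKO 0.25 above wild type. Ifih1, which encodes MDA5, was at 6.99 in every array. Dhx58, which encodes the regulator LGP2, was at 5.94, 5.75 and 5.94. In this role group, 1 of 3 genes was above wild type in the Tgfbr2/Smad4 cKO and the others were equal.

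The membrane restriction factors differed in a common direction. IFITM proteins hinder the fusion of virus with cell membranes, and tetherin, encoded by Bst2, holds budding virus at the cell surface. Ifitm3 had signals of 13.06, 12.92 and 13.54, Ifitm2 of 11.90, 11.82 and 12.31, Ifitm1 of 6.28, 6.28 and 6.45 and Bst2 of 9.49, 9.49 and 9.80. In all 4 the Tgfbr2/Smad4 cKO was highest, with differences from wild type of 0.48, 0.41, 0.16 and 0.32 in the same order, none of which reaches 1.5-fold. Ifitm2 was read by 3 probe sets, all higher, by 0.39 to 0.44. The IFITM genes are neighbours and close in sequence, so their signals are not independent.

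Ifi27, which encodes a small mitochondrial and nuclear envelope protein, was at 12.03, 12.03 and 12.28, and Ifi35 at 9.25, 9.27 and 9.33. Xaf1, which encodes a proapoptotic antagonist of XIAP, was equal at 6.18. PARP9 and its partner DTX3L form an ADP-ribosylation and ubiquitin ligase complex, and PARP14 is a related mono-ADP-ribosyltransferase. Parp9, Dtx3l and Parp14 lie side by side and were each equal in all 3 arrays, at 7.89, 7.30 and 6.71.

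The interferon-inducible GTPases attack the vacuoles of intracellular parasites and bacteria. Irgm1, a regulator of this family, had signals of 9.63, 9.79 and 10.23, which are 0.16 and 0.60 above wild type in the Tgfbr2 cKO and the Tgfbr2/Smad4 cKO. Gbp3 was equal at 6.65, Gbp2, read with Gbp2b, at 8.49, and Igtp, read with Irgm2, was at 7.43, 7.43 and 7.47. Outside the 46 genes, Tgtp1 and Tgtp2, further GTPases of the family, were read together by 2 probe sets. The first had signals of 7.02, 6.83 and 8.52 and the second of 7.26, 7.13 and 8.64, so that both were higher in the Tgfbr2/Smad4 cKO, the second by 1.38. They were named after their values were seen.

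Of the antigen processing genes on the list, Tap1 was the 1 that differed 1.5-fold from wild type. Peptides cut by the immunoproteasome, whose subunits include the products of Psmb8 and Psmb9, are carried into the endoplasmic reticulum by the TAP transporter, a dimer of TAP1 and TAP2, and are presented on MHC class I bound to beta-2-microglobulin. Tap1 had signals of 8.24, 8.24 and 8.85 and was 0.61 above wild type in the Tgfbr2/Smad4 cKO, as far up as 1.94% of all genes. Psmb9, which starts 225 bases away on the other strand, was at 7.30, 7.28 and 7.48. Tap2 was equal at 8.92. Psmb8, which lies between Tap1 and Tap2, had signals of 6.80, 6.89 and 6.54 and was lowest in the Tgfbr2/Smad4 cKO, at -0.26. B2m was at 12.73, 12.73 and 12.83. The chemokine gene Cxcl10, which draws activated T cells, had signals of 6.44, 6.53 and 6.20, lowest in the Tgfbr2/Smad4 cKO, and each of these was under the median.

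**Figure D3:**
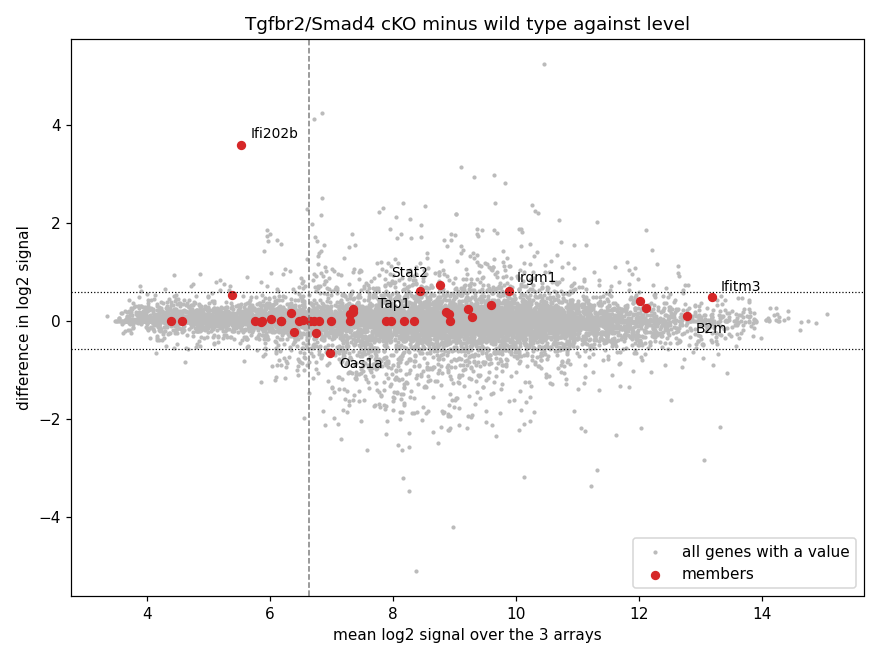
Difference in log2 signal between the Tgfbr2/Smad4 cKO and wild-type arrays (vertical axis) against the mean log2 signal of the 3 arrays (horizontal axis) for all 19938 genes (grey) and the 41 genes of the list (red). Dotted lines mark 1.5-fold and the dashed line the median of all values. Ifi202b lies far above the other red points, most of which are within 1.5-fold of 0.

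Genes with and without the ISRE core are set side by side here. Among those with a value, 17 had GAAANNGAAA in their window, and 9 of these were above wild type in the Tgfbr2/Smad4 cKO, 3 below and 5 equal, with a median of 0.10. Another 14 had a window without it, and 8 were above, 1 below and 5 equal, with a median of 0.11. At 1.5-fold the first set held Stat2 and Irgm1 on the higher side and Oas1a on the lower, and the second held Ifi202b and Tap1 on the higher side. Over all genes 24.8% were above wild type and 22.8% below, and 2.08% and 3.12% were 1.5-fold higher and lower, and nothing is read from the split by motif.

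The Tgfbr2 cKO line differed little from wild type in these genes. The largest differences were 0.32 for Ifi203, 0.27 for Stat2, 0.24 for Irf7, -0.26 for Oas1a and -0.19 for Dhx58, which encodes LGP2. Of the 41, 8 were above wild type, 11 below and 22 equal, with a median of 0. None was 1.5-fold higher or lower, where 0.14% and 0.105% of all genes were, and none 2-fold higher or lower, where 0.0201% and 0.00502% were. Over all genes 18.2% were above and 15.0% below. At or above the median signal, 0 of 27 passed either fold, where 0.0257% and 0.00855% of such genes were 2-fold higher and lower and 0.188% and 0.154% were 1.5-fold higher and lower. Since these arrays come from a tumour and a normal forestomach, tissue of origin and genotype cannot be told apart.

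Set beside the Tgfbr2 cKO, the Tgfbr2/Smad4 cKO was higher in 20 of 41 genes, lower in 3 and equal in 18. Over all genes 24.6% were higher, 23.5% lower and 51.8% equal. The difference was 3.58 for Ifi202b, 0.62 for Ifitm3, 0.61 for Tap1, 0.50 for Ifitm2, 0.46 for Stat2 and 0.44 for Irgm1, and on the other side -0.40 for Oas1a, -0.35 for Psmb8 and -0.33 for Cxcl10. At 2-fold this was 1 of 41 higher, or 2.44%, against 0.782% of all genes, and 0 lower, against 1.34%. At 1.5-fold it was 3 of 41 higher, or 7.32%, against 2.1%, and 0 lower, against 3.43%. Among the 27 genes at or above the median signal, 0 were 2-fold higher or lower, where 1.24% and 2.2% of such genes were. At 1.5-fold 2 of these 27 were higher, or 7.41%, against 3.22%, and 0 lower, against 5.49%. With the offset of 32 the difference for Tap1 was 0.56, and 2 of 41 were 1.5-fold higher, against 1.73% of all genes. This comparison shares an array with each of the other comparisons, so it is not a separate set of measurements.

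Upstream of these genes, the interferon genes named here had dim signals. Ifnb1 was equal at 4.73 and Ifng at 5.69 in every array, both under the median signal. Ifna2, also under it, was at 5.54, 5.54 and 5.91, and Ifnk at 5.00, 5.00 and 5.27. Of the receptors, Ifnar1 had signals of 9.72, 9.72 and 9.65, Ifnar2 of 9.21, 9.30 and 9.36, Ifngr1 of 9.66, 9.72 and 9.38 and Ifngr2 of 11.19, 11.28 and 11.09. The kinase gene Jak1 was at 11.54, 11.67 and 11.19 and Jak2 at 9.57, 9.57 and 9.30. Of 20 genes with a value among interferon ligands, receptors and kinases, 6 were above wild type in the Tgfbr2/Smad4 cKO, 6 below and 8 equal. None differed 1.5-fold, where 2.08% of all genes were 1.5-fold higher than wild type in that array and 3.12% lower.

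Of 19 genes for sensing adaptors and kinases, 6 were above wild type in the Tgfbr2/Smad4 cKO, 4 below and 9 equal. Tlr4, the receptor for bacterial lipopolysaccharide, was the 1 that differed 1.5-fold, or 5.26%, against 2.08% of all genes higher and 3.12% lower. It had signals of 10.19, 10.02 and 11.18, and was 0.99 above wild type in the Tgfbr2/Smad4 cKO. Sting1, the adaptor of cytosolic DNA sensing, went the other way at 10.37, 10.37 and 9.90, and Ikbke, a kinase that activates IRF3, was at 7.48, 7.42 and 7.94.

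Further genes of the class I route lay on both sides of wild type. Of 14 with a value, 3 were above wild type in the Tgfbr2/Smad4 cKO, 5 below and 6 equal. Tapbp, which encodes the tapasin that bridges TAP and class I, was at 10.35, 10.23 and 10.74. H2-Q4, a nonclassical class I gene, was at 6.46, 6.68 and 5.97. The classical class I genes H2-K1 and H2-D1 were read together by 2 probe sets, at 9.98, 10.03 and 9.69 and at 9.80, 10.01 and 9.39, lowest in the Tgfbr2/Smad4 cKO in both. H2-T23, another class I gene, read together with H2-T-ps, went the other way, at 8.06, 8.06 and 8.53. The third immunoproteasome subunit gene Psmb10 was at 9.09, 9.09 and 9.17.

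Of 9 class II genes with a value, 2 were 1.5-fold lower in the Tgfbr2/Smad4 cKO than in wild type, where 3.12% of all genes were, and both had their highest signal in the Tgfbr2 cKO. H2-Ab1, a class II beta chain, had signals of 7.12, 7.51 and 6.25, and Ctss, the protease that trims the invariant chain, of 6.77, 7.14 and 6.10. Ciita, the master regulator of class II, was equal at 6.07 and H2-Aa at 4.57. Psmb8 and Cxcl10, described above, had the same order of the arrays. The epithelial marker Krt19, given above, had that order too. It was the 1 of 10 epithelial markers above wild type in the Tgfbr2 cKO, where 4 were below and 5 equal. Of the leukocyte and macrophage markers, only Lyz2 and Cd68 also had that order. Of 17 with a value, 4 were above wild type in the Tgfbr2 cKO and none below, and in the Tgfbr2/Smad4 cKO 3 were above and 3 below. The 3 above were Ms4a1, Cd79a and Ncr1, all under the median signal. The summed linear signal of the 17 was 1485, 1864 and 1281, and its changes come mainly from Lyz2 and Cd68, so it does not describe the whole panel. Lyz2, which encodes lysozyme, was at 8.70, 9.52 and 7.75 and Cd68 at 7.01, 7.51 and 6.76. The defining markers Ptprc, Itgam, Adgre1 and Tyrobp were each equal in all 3 arrays, at 5.23, 5.23, 4.87 and 6.18, under the median signal. Csf1r and Cd14 were above it and also equal in all 3, at 6.81 and 7.66. The part of leukocytes and epithelial cells in the signals of Psmb8, Cxcl10 and the class II genes was not tested, and more cells of a type cannot be told apart from more RNA per cell.

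**Figure D4:**
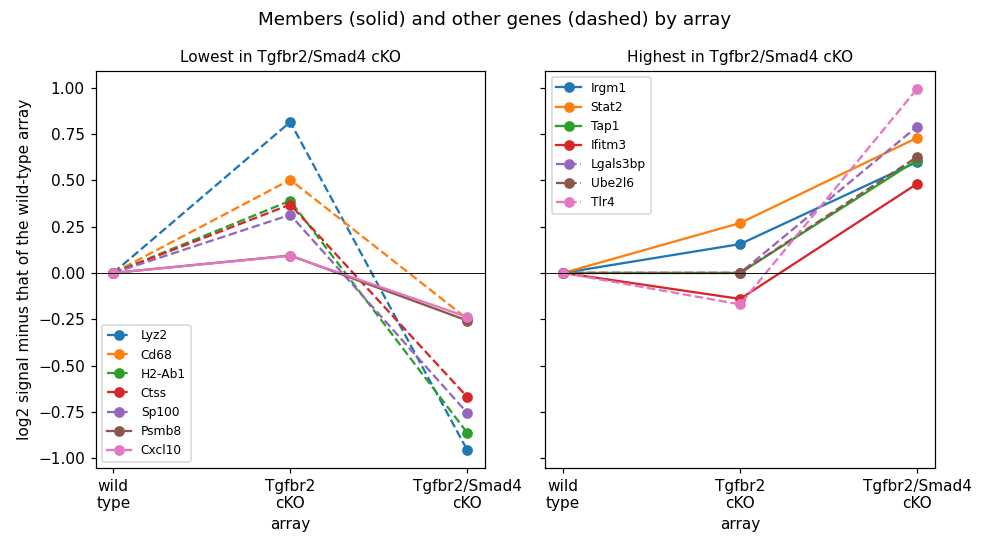
Log2 signal minus that of the wild-type array (vertical axis) for genes of the list (solid) and other genes (dashed) in the 3 arrays (horizontal axis), picked after their values were seen. On the left the signal was highest in the Tgfbr2 cKO and lowest in the Tgfbr2/Smad4 cKO, from Lyz2 at 0.82 and -0.96 to Cxcl10 at 0.09 and -0.24. On the right it was highest in the Tgfbr2/Smad4 cKO, up to 0.99 for Tlr4.

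A wider list of 65 interferon-stimulated genes, 53 of them with a value, was also mixed. In the Tgfbr2/Smad4 cKO, 14 were above wild type, 12 below and 27 equal, with 2 at least 1.5-fold higher, or 3.77%, against 2.08% of all genes, and 3 lower, or 5.66%, against 3.12%. The 2 higher were Lgals3bp and Ube2l6, and the 3 lower were Samhd1, Slfn9 and Sp100. These counts leave out Tgtp1 and Tgtp2, which are on this wider list but were read only by probe sets they share. Both of those probe sets, given above, were further above wild type in the Tgfbr2/Smad4 cKO than any counted gene. The second was 1.38 above, where the highest counted difference was 0.79. Lgals3bp, a secreted galectin-binding glycoprotein, was at 10.38, 10.38 and 11.17. Rnf213, a large ubiquitin ligase, was at 8.25, 8.09 and 8.71, and Ifi27l2a at 6.69, 6.97 and 6.13, and both passed 1.5-fold only between the knockouts. Samhd1, which depletes nucleotides and so restricts retroviruses, was at 11.05, 10.91 and 10.09, Slfn9 at 6.54, 6.63 and 5.67, and Sp100, a nuclear body protein, at 6.71, 7.02 and 5.95. Ube2l6, the conjugating enzyme for ISG15, was 0.63 above wild type at 7.96, 7.96 and 8.58, and was picked after its values were seen.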

How the data were processed

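Per the labels' protocols, each of the 3 lines was measured on 1 Affymetrix Mouse Gene 1.0 ST array with transcript-level summaries. The authors deposited 1 value for each of 35556 probe sets per array, read here as log2 signals from their range of 2.82 to 15.6. The software, the normalization and the build behind them are not named in the labels. Array medians differed by at most 0.00413, so values were used as deposited.

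Gene names came from the platform annotation, with symbols updated from a RefSeq table of GRCm38.p6. Of the probe sets, 21789 had 1 symbol, 1621 had several and 12146 were not in that annotation. Those with 1 symbol were averaged by gene, giving 19938 genes, with no level filter. A difference is the log2 signal of one array less that of another, counted at 2-fold and 1.5-fold. There is no test with 1 array per group. The counting was tested on simulated data with smooth noise and no tied values, which checks the code and not the precision of these arrays.

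The genes and lists were chosen with earlier results of these data known. Levels in every array were given for genes at least 1.5-fold different or with a mean at or above 9.14. This is the 75th percentile of the means of all genes. Up to 2 examples per role were given besides. Of the wider lists, the rule named genes at least 1.5-fold different, up to 6 per list. All other genes that the text names were added after their values were seen.

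Alternatives were median centring, quantile and cyclic loess normalization, level filters, other treatments of probe sets, an offset of 32, other size rules and dropping tied genes. Analyses used Python 3.11.15, numpy 2.4.6, pandas 2.3.3, matplotlib 3.10.9, R 4.3.3 and limma 3.58.1.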

Additional observations from a re-analysis of the deposited data

How the results depend on the processing

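No paired analysis was possible because each group has 1 array, and no replicate could be left out. Of 111 recomputed counts and medians over the listed genes, 99 stayed within 1.5 times the count or 0.1 of the median. Ifi202b was the 1 gene at least 2-fold higher in the Tgfbr2/Smad4 cKO than in wild type and than in the Tgfbr2 cKO. It has a mean signal under the median. With only genes whose mean signal reached the median of all values, or their 75th percentile of 8.85, both counts were therefore 0. At 1.5-fold the counts were 4 higher and 1 lower than wild type and 3 higher than the Tgfbr2 cKO. The median difference from wild type in the Tgfbr2/Smad4 cKO was 0 over the 41 genes and 0.25 over the 11 at or above 8.85. That from the Tgfbr2 cKO was 0.28 over the 11. The median from wild type was 0.12 over the 28 genes whose highest signal reached the median, which admits Ifi202b through its high array alone. Over the 16 genes whose values all differed these medians were 0.18 and 0.20, but that choice removes every gene at 0, so neither is a result. Of 790 recomputed differences of single genes, 9 moved by over 0.1 and none that was 1.5-fold changed sign. Many of the 790 could not move, because a filter keeps or drops a gene without changing its difference. The offset of 32 moved 5, the shared probe sets 3 and the choice of the probe set with the highest mean 1. With the offset of 32, Ifi202b was 2.40 above wild type and Ifi203 0.29, while Tap1 at 0.56, Irgm1 at 0.58 and Oas1a at -0.53 no longer reached 1.5-fold, and with shared probe sets included Oas1a was at -0.33. None of the scalings moved the median of all genes by over 0.1, but they align the arrays and many genes are tied, so it could hardly move.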

Other observations

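Listed genes split by whether the array resolved any difference. The 16 with exactly 1 value in all 3 arrays included Mx1, Mx2, Oas3, Oasl2, Rsad2, Usp18, Ifit3, Irf9, Ifih1, Xaf1, Gbp3, Trim25, Tap2 and the neighbours Parp9, Parp14 and Dtx3l. Of the 41, 19 had their highest signal in the Tgfbr2/Smad4 cKO array, or 46.3%, against 22.0% of all genes, and 3 had their lowest there, or 7.32%, against 20.7%. The 3 were Oas1a, Psmb8 and Cxcl10.

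Values recurred between genes as well as between arrays. Below the median signal 60.5% of probe sets in the wild-type array shared their exact value with another probe set, against 29.6% at or above it, and 31 of the 63 probe sets of the listed genes did.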
